A study of Arabidopsis thaliana with 40 samples.

Results

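The WRKY transcription factor genes described here are 46 *Arabidopsis* genes that were chosen by family membership and found by their TAIR gene IDs among the 33602 gene IDs of 12 RNA-seq count files, of which 33323 are nuclear. All 46 IDs have a row in each file. They hold 9 genes of structural group I, 3 of group IIa, 4 of group IIb, 10 of group IIc, 6 of group IId, 6 of group IIe and 8 of group III, and are not every WRKY gene of the species. The choice was made with earlier results of these data known. Shares of members set beside those of all genes therefore describe this set and do not test the family.

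UBP12 and UBP13 are ubiquitin-specific proteases that take ubiquitin off histone H2A (the mark H2Aub1), and the study concerned the part of H2Aub1 removal in gene repression. RNA was taken from material labelled whole seedlings after 15 days on plates in long days, 6 to 8 h into the light period, with 3 biological replicates each of *ubp12/13*, *ubp12*, *ubp13* and wild type (wt). All plants were Col-0. The *ubp12/13* plants carried the T-DNA alleles *ubp12-1* and *ubp13-3*, of which *ubp13-3* is described as weak, and were sterile and stunted, the *ubp12* plants carried *ubp12-1* alone, the *ubp13* plants carried *ubp13-3* alone, and the wt plants carried neither. Each mutant genotype is thus 1 allele or 1 pair of alleles. Peaks of H2Aub1 increase in *ubp12/13* against wt came from rosette leaves after 15 days on plates and 2 weeks on soil, with 2 replicates per genotype that the authors merged.

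WRKY proteins bind W-box elements in promoters, among them those of other WRKY genes, and many of them are induced within minutes to hours by pathogens, wounding, salicylic acid or leaf ageing. Some members of group I are phosphorylated by MAP kinases of the immune response, group IId proteins bind calmodulin, group IIa proteins act mostly as repressors of basal defence, and several group III proteins set the timing of leaf senescence. Because the genes often come as closely related copies that share functions, the copies were followed side by side.

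The 250 bases before the start of 8 genes are shown, and capitals mark the W-box letters TTGACC or TTGACT on either strand, so that GGTCAA and AGTCAA are the same element on the opposite strand. *WRKY46* (chr2:19044956-19045205, minus strand) is shown for the largest fold change in *ubp12/13* and *WRKY70* (chr3:20910624-20910873, minus strand) as the most abundant member called lower. *WRKY33* (chr2:16107985-16108234, plus strand) and *WRKY53* (chr4:12393983-12394232, minus strand), called higher, and *WRKY17* (chr2:10439470-10439719, minus strand) and *WRKY41* (chr4:6758848-6759097, plus strand), called lower, were picked because they are the called members with 2 W-boxes. Of the other called members *WRKY25* has 1 W-box and *WRKY6*, *WRKY8*, *WRKY22*, *WRKY40*, *WRKY54* and *WRKY57* have none. *WRKY29* (chr4:12291382-12291631, plus strand) and *WRKY27* (chr5:21410519-21410768, plus strand) were the members with a peak of H2Aub1 increase. Sequences and positions are from the RefSeq copy of TAIR10.1 and run 5′ to 3′ on the strand of the gene.
WRKY46: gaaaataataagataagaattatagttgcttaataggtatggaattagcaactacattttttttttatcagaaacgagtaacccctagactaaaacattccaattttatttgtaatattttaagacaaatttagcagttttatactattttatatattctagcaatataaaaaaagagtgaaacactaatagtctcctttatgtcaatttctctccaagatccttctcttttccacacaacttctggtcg
WRKY70: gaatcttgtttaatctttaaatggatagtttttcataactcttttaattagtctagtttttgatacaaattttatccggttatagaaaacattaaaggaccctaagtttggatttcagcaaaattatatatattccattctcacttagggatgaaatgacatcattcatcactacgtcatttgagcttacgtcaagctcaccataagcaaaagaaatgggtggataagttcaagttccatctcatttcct
WRKY33: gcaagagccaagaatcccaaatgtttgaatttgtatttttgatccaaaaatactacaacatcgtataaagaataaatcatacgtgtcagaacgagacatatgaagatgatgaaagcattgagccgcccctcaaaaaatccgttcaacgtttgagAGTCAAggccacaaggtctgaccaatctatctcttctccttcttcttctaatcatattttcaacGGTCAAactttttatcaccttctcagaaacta
WRKY53: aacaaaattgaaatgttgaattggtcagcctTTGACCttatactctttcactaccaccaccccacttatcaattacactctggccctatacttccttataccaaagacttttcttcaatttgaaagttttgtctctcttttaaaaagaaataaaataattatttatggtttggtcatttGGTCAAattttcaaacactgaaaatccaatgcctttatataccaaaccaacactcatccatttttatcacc
WRKY17: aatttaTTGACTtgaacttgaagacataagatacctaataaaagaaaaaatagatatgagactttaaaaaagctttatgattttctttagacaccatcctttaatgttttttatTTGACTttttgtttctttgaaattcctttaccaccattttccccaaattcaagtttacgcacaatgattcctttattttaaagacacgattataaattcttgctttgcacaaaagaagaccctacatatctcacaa
WRKY41: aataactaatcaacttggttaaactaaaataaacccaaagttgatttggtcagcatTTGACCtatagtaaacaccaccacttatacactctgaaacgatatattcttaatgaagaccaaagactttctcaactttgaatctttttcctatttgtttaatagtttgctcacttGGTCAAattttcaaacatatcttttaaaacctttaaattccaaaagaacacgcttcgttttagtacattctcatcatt
WRKY29: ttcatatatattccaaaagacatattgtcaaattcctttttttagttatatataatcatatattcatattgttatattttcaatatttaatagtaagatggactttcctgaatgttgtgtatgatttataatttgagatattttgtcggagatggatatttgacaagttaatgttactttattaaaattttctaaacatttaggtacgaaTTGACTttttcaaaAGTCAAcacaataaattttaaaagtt
WRKY27: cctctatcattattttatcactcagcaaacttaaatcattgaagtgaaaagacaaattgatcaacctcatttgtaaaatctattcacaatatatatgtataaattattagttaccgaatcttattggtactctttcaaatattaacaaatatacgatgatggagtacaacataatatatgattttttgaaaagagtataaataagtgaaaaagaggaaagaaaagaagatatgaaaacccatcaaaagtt
The windows of *WRKY33*, *WRKY53*, *WRKY17*, *WRKY41* and *WRKY29* each hold 2 W-boxes, and those of *WRKY46*, *WRKY70* and *WRKY27* hold none. In *WRKY29* the W-boxes lie 40 and 26 bases before the start, on opposite strands.

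Each library held 6545534 to 15225396 counts on nuclear genes, 12145023 to 15225396 in *ubp12/13* and 6545534 to 9494373 in wt, so the double mutant was read more deeply. Levels are given as CPM, the counts of a gene scaled to the TMM-normalised library size. *UBP12* (AT5G06600) had 33.9, 27.2 and 36.3 CPM in *ubp12/13* and 26.1, 23.3 and 27.4 CPM in *ubp12*, against 99.8, 101 and 95.8 CPM in wt. *UBP13* (AT3G11910) had 77.9, 78.4 and 80.9 CPM in *ubp12/13* and 149, 171 and 153 CPM in the libraries labelled *ubp13*, against 62.6, 63.3 and 63.6 CPM in wt, and was called higher in the libraries labelled *ubp13* by edgeR (log2FC 1.32 ± 0.10, adjusted p = 0.000593). The *UBP13* counts therefore do not show a loss in the plants labelled as mutant for it, and since gene counts do not tell on which side of a T-DNA insertion the reads fell, they do not check this allele. Both genotypes labelled with *ubp13-3* also differed in *UBP13* without overlap, at a log2FC against wt of 0.32 ± 0.07 in *ubp12/13* (edgeR, adjusted p = 0.0129). The reason was not tested, and the tests below that add the changes of *ubp12* and *ubp13* use these libraries. Of 8 root markers, *SCR* had 37.1, 45.7 and 41.8 CPM in *ubp12/13*, against 38.8, 41.7 and 34.6 CPM in wt, and was not called. The other root markers summed to 1.54 to 2.57 CPM in *ubp12/13* and 0.125 to 0.467 CPM in wt. Only *CASP1* among them had enough counts to be tested in *ubp12/13*, and it was called higher (edgeR, log2FC 4.04 ± 0.54, adjusted p = 0.00095). Its counts in wt were 0 to 1 per library. Of these markers 3 had no counts in *ubp12/13* and 4 had none in wt. *SCR* apart, the label of whole seedlings was thus not borne out by these root transcripts. The 6 leaf markers summed to 45981 to 51997 CPM in *ubp12/13* and 61638 to 71949 CPM in wt.

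In *ubp12/13* seedlings 8 members were called higher (*WRKY6*, *WRKY22*, *WRKY25*, *WRKY33*, *WRKY40*, *WRKY46*, *WRKY53* and *WRKY57*) and 5 were called lower (*WRKY8*, *WRKY17*, *WRKY41*, *WRKY54* and *WRKY70*). A call needed an adjusted p under 0.05 in edgeR's quasi-likelihood test and an absolute log2 fold change (log2FC) of at least 1. Of the 46 members, 38 exceeded 1 CPM in 2 or more of the 6 libraries compared and were tested. The 13 calls were 34.2% of these, beside 9.96% of all 17916 genes tested, and the background was 5.94% for calls higher and 4.02% for calls lower. A further 9 members passed the adjusted p alone with a positive log2FC and none did so with a negative one, which gave 17 higher and 5 lower beside 16% and 15.1% of all genes. The median log2FC was 0.52 over the members tested (quartiles 0.01 and 0.93) and -0.002 over all genes. Scaling by library totals moved the median of all genes to 0.15 and that of the members to 0.67. In 20 of 38 members all *ubp12/13* libraries lay above all wt libraries and in 5 all lay below, beside 24.1% and 22.6% of all genes. In whole seedlings, fewer cells of a type and less RNA per cell cannot be told apart. The summed leaf markers above were lower in *ubp12/13* and *CASP1* was higher, while *SCR* was not called. Their part in these results was not tested.

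**Figure D1:**
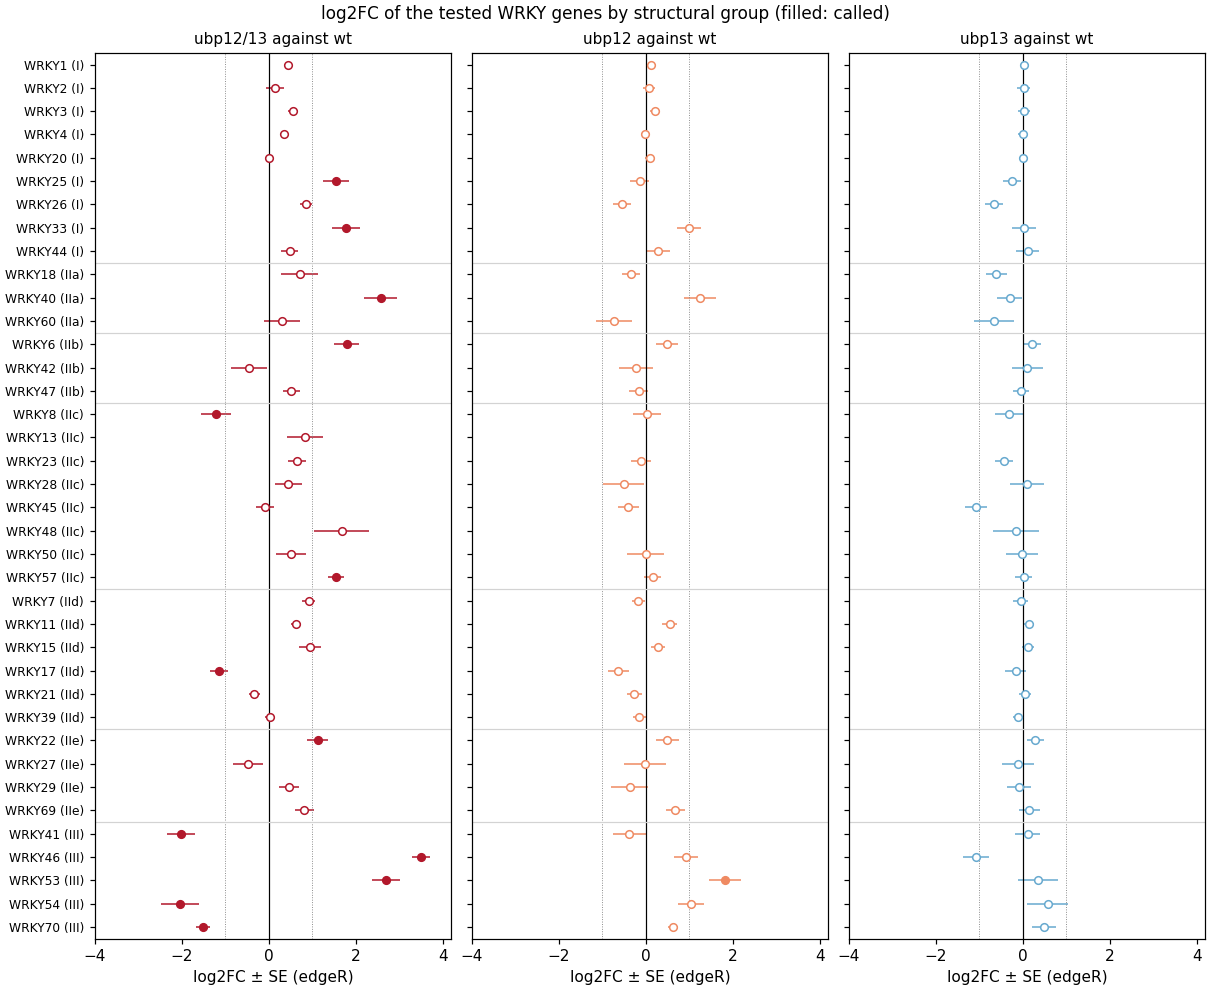
log2FC with a standard error worked back from edgeR's F statistic (x axis) of the tested WRKY genes (y axis, ordered by structural group) in *ubp12/13*, *ubp12* and *ubp13*, each against wt. Filled points are called, the dotted lines mark an absolute log2FC of 1, and the 5 tested group III genes in *ubp12/13* lie at -1.52 or below or at 2.69 or above.

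Group III showed the widest split. All 5 tested members were called in *ubp12/13*, 2 higher and 3 lower, beside 5.94% and 4.02% of all genes. *WRKY46* (AT2G46400, chr2:19043411-19044955, minus strand), which acts in basal defence and osmotic stress, had 37.5, 41.9 and 30 CPM in *ubp12/13*, against 3.38, 3.87 and 2.18 CPM in wt. Every *ubp12/13* library lay far above every wt library, and this was the largest fold change of the 38 members tested (log2FC 3.50 ± 0.20, adjusted p = 2.78e-05). *WRKY53* (AT4G23810, chr4:12392370-12393982, minus strand), a promoter of leaf senescence, had 12.9, 7.51 and 12 CPM in *ubp12/13*, against 1.53, 2.37 and 0.935 CPM in wt. The groups did not overlap (log2FC 2.69 ± 0.33, adjusted p = 0.000564).

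The other 3 tested members of group III were called lower. *WRKY70* (AT3G56400, chr3:20908711-20910623, minus strand), which balances salicylic acid against jasmonate responses and delays senescence, had 44.1, 43.1 and 28.9 CPM in *ubp12/13*, against 123, 105 and 102 CPM in wt. All *ubp12/13* libraries were below all wt libraries (log2FC -1.52 ± 0.16, adjusted p = 0.000327). *WRKY54* (AT2G40750, chr2:17000419-17002528, minus strand), its partner in delaying senescence, had 0.983, 1.3 and 2.04 CPM in *ubp12/13*, against 9.49, 4.62 and 3.12 CPM in wt. The ranges did not overlap, although wt replicate 1 stood well above the other wt libraries (log2FC -2.04 ± 0.43, adjusted p = 0.00769). *WRKY41* (AT4G11070, chr4:6759098-6760794, plus strand), a defence gene that also regulates seed dormancy, had 0.454, 0.355 and 0.303 CPM in *ubp12/13*, against 1.53, 1.62 and 1.4 CPM in wt. These low levels were well separated (log2FC -2.02 ± 0.33, adjusted p = 0.00241).

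The summed level of group III was 73.6 to 96.1 CPM in *ubp12/13*, against 109.7 to 139.7 CPM in wt. *WRKY70* made up most of that sum in wt. *WRKY41* overlaps AT4G11080 on the opposite strand by 517 bp, and that gene was itself called lower in *ubp12/13* (log2FC -1.32 ± 0.16, adjusted p = 0.000563). *WRKY53* overlaps AT4G23800 on the opposite strand by 341 bp, and that neighbour was called lower (log2FC -1.09 ± 0.08, adjusted p = 7.62e-05) while *WRKY53* was called higher. The kit did not keep strand, so reads in the shared parts cannot be told apart.

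**Figure D2:**
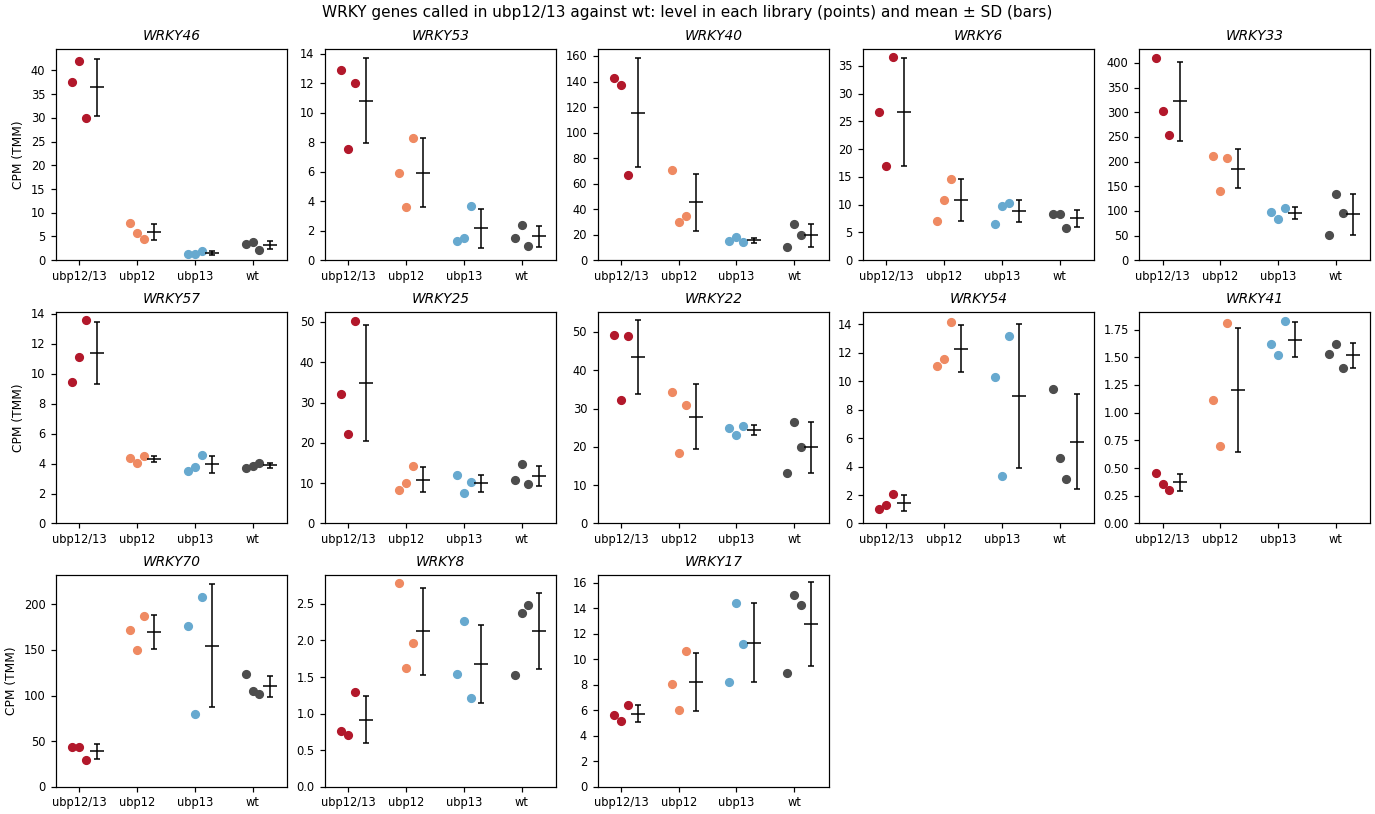
TMM-normalised CPM (y axes, each from 0) of the 13 WRKY genes called in *ubp12/13* against wt, in *ubp12/13*, *ubp12*, *ubp13* and wt libraries. Points are libraries, bars are mean ± SD (n = 3), and *WRKY46* averages 36.5 ± 6.03 in *ubp12/13* and 3.14 ± 0.869 in wt.

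In group IIa, whose members form complexes with each other and restrain basal defence and abscisic acid responses, the copies differed. *WRKY40* (AT1G80840, chr1:30383561-30385499, plus strand) had 143, 138 and 66.5 CPM in *ubp12/13*, against 10, 28.2 and 20.1 CPM in wt. The groups did not overlap, with *ubp12/13* replicate 3 at less than the others and wt replicate 1 the lowest of wt (log2FC 2.57 ± 0.39, adjusted p = 0.00161). *WRKY18* (AT4G31800) had 7.72, 4.55 and 16.4 CPM in *ubp12/13*, against 6.11, 5.49 and 5.61 CPM in wt. These ranges overlapped, and *WRKY18* was not called (log2FC 0.71 ± 0.43, adjusted p = 0.245) except without *ubp12/13* replicate 2 (log2FC 1.06, adjusted p = 0.0276). Without *ubp12/13* replicate 3, its highest library, the log2FC was 0.0699 (adjusted p = 0.863). *WRKY60* (AT2G25000) had 2.5, 3.96 and 1.66 CPM in *ubp12/13*, against 3.38, 1.62 and 1.4 CPM in wt, again with overlap (log2FC 0.31 ± 0.41, adjusted p = 0.607).

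Group I holds some of the substrates of immune MAP kinases. *WRKY33* (AT2G38470, chr2:16108235-16110766, plus strand), needed for camalexin synthesis and resistance to necrotrophic fungi, had 410.3, 302 and 254 CPM in *ubp12/13*, against 50.4, 134 and 96.1 CPM in wt. All *ubp12/13* libraries were higher, and wt replicate 1 was the lowest library of all (log2FC 1.78 ± 0.32, adjusted p = 0.00379). Over settings that left out a library or changed the processing, its log2FC ran from 1.47 to 2.13. It took 33.3%, 28.8% and 24.2% of the summed CPM of the 46 genes in *ubp12/13*, against 9.06%, 18.8% and 16.0% in wt. *WRKY33* overlaps the opposite-strand lncRNA gene AT2G08965 over part of its length, and *WRKY1* and *WRKY40* overlap opposite-strand genes by 166 and 51 bp.

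The heat response genes *WRKY25* and *WRKY26* are its nearest relatives. *WRKY25* (AT2G30250, chr2:12903208-12905338, minus strand) had 32.1, 22.1 and 50.3 CPM in *ubp12/13*, against 10.8, 14.7 and 9.81 CPM in wt, without overlap (log2FC 1.55 ± 0.30, adjusted p = 0.00543). *WRKY26* (AT5G07100) had 15.8, 18.8 and 17 CPM in *ubp12/13*, against 8.83, 11.2 and 8.1 CPM in wt, also without overlap. It passed the adjusted p but not the minimum fold change (log2FC 0.86 ± 0.14, adjusted p = 0.00251), and was called with library totals or without wt replicate 2 (log2FC 1.01 each). *WRKY1* (log2FC 0.45), *WRKY3* (0.56) and *WRKY4* (0.35, with an adjusted p of up to 0.0757 over the settings tried) also passed the adjusted p alone, of which *WRKY3* and *WRKY4* act against necrotrophic fungi. Of the 9 members of group I, 6 thus passed the adjusted p, all with a positive log2FC, beside 16% of all genes. *WRKY2*, *WRKY20* and the trichome and seed coat gene *WRKY44* did not pass, at 0.15, 0.00 and 0.48.

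**Figure D3:**
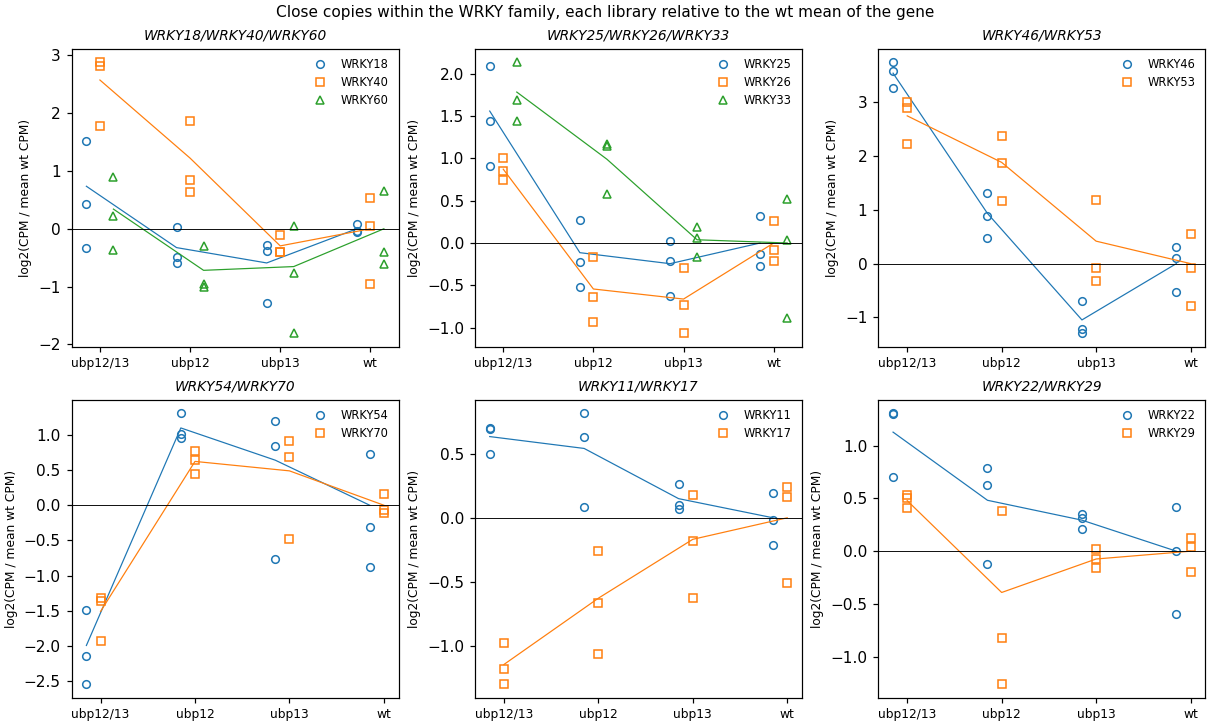
log2 of the CPM of each library over the mean wt CPM of the gene (y axis), in *ubp12/13*, *ubp12*, *ubp13* and wt, for 6 sets of closely related WRKY genes. Symbols are libraries and lines join the genotype means. In *ubp12/13* *WRKY46* and *WRKY53* lie above 2, *WRKY54* and *WRKY70* lie below -1, and *WRKY11* and *WRKY17* lie on opposite sides of 0.

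In group IId, *WRKY11* and *WRKY17* are close copies that both dampen resistance to *Pseudomonas syringae*, and they moved apart. *WRKY11* (AT4G31550) had 77.2, 67.2 and 77.1 CPM in *ubp12/13*, against 40.9, 54.4 and 47 CPM in wt. It was higher without overlap, under the minimum fold change (log2FC 0.63 ± 0.12, adjusted p = 0.00487). *WRKY17* (AT2G24570, chr2:10437353-10439469, minus strand) had 5.6, 5.15 and 6.43 CPM in *ubp12/13*, against 8.94, 15 and 14.2 CPM in wt. All *ubp12/13* libraries were below all wt libraries (log2FC -1.15 ± 0.21, adjusted p = 0.00388). *WRKY7* (log2FC 0.92) and the growth and salt stress gene *WRKY15* (0.94) passed the adjusted p under the fold minimum. Scaling by library totals or leaving out wt replicate 2 or *ubp12/13* replicate 2 took both past it (log2FC 1.00 to 1.07 for *WRKY7* and 1.06 to 1.17 for *WRKY15*), while *WRKY15* missed the adjusted p without wt replicate 1, wt replicate 3 or *ubp12/13* replicate 1. *WRKY21* and *WRKY39* were not called (-0.33 and 0.02).

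In group IIe, *WRKY22* and *WRKY29* act together after perception of bacterial flagellin. *WRKY22* (AT4G01250, chr4:522530-524249, minus strand) had 49.2, 32.3 and 48.9 CPM in *ubp12/13*, against 13.2, 26.6 and 19.9 CPM in wt. The groups did not overlap (log2FC 1.12 ± 0.25, adjusted p = 0.0101), but without wt replicate 1, its lowest library, the log2FC was 0.88 and the call was lost. *WRKY29* (AT4G23550) had 2.12, 2.31 and 2.27 CPM in *ubp12/13*, against 1.64, 1.75 and 1.4 CPM in wt, above without overlap but not past the test (log2FC 0.47 ± 0.22, adjusted p = 0.171). *WRKY69* (AT3G58710) passed the adjusted p alone (log2FC 0.81 ± 0.22, adjusted p = 0.0217) and overlaps the opposite-strand gene AT3G58720 by 373 bp. It was called without wt replicate 2 (log2FC 1.03) and missed the adjusted p with the replicate block and without wt replicate 1, wt replicate 3, *ubp12/13* replicate 1 or *ubp12/13* replicate 3. *WRKY27*, a gene of bacterial wilt symptoms, had a log2FC of -0.48.

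In group IIb, *WRKY6* (AT1G62300, chr1:23016569-23019494, minus strand), a senescence gene that also represses the phosphate exporter gene *PHO1*, had 26.6, 16.9 and 36.5 CPM in *ubp12/13*, against 8.4, 8.36 and 5.76 CPM in wt. All *ubp12/13* libraries were higher, most of all replicate 3 (log2FC 1.79 ± 0.29, adjusted p = 0.00225). *WRKY42*, its partner in the control of *PHO1*, had a log2FC of -0.45 and *WRKY47* of 0.52, neither called. *PHO1* itself differed by -0.10 ± 0.25.

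In group IIc, 1 of 8 tested members was called in each direction, beside 5.94% of all genes called higher and 4.02% called lower. *WRKY57* (AT1G69310, chr1:26054275-26058383, minus strand), a drought tolerance gene that slows jasmonate-induced senescence, had 9.46, 11.1 and 13.6 CPM in *ubp12/13*, against 3.71, 3.87 and 4.05 CPM in wt. The wt libraries lay close together and all *ubp12/13* libraries were higher (log2FC 1.55 ± 0.18, adjusted p = 0.000467). *WRKY8* (AT5G46350, chr5:18801164-18804056, minus strand), a salt tolerance and defence gene, had 0.756, 0.71 and 1.29 CPM in *ubp12/13*, against 1.53, 2.37 and 2.49 CPM in wt. The call (log2FC -1.21 ± 0.34, adjusted p = 0.0281) was lost without wt replicate 2, wt replicate 3, *ubp12/13* replicate 1 or *ubp12/13* replicate 2, with adjusted p values of 0.0736 to 0.0911.

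The remaining members of group IIc were less clear. The defence gene *WRKY48* had 1.89, 1.36 and 5.07 CPM in *ubp12/13*, against 0.981, 1.12 and 0.312 CPM in wt. The groups did not overlap, yet *ubp12/13* replicate 3 stood far above the others and the test was not passed in edgeR (log2FC 1.68 ± 0.63, adjusted p = 0.0759), while it was called with library totals (adjusted p = 0.0436), in a common fit of all libraries (0.0302), without *ubp12/13* replicate 2 (0.0218) and in DESeq2 (0.0243). The auxin response gene *WRKY23* lay just inside the threshold on the adjusted p and under the minimum fold change (log2FC 0.65, adjusted p = 0.05 after rounding, and up to 0.14 over the settings tried). *WRKY13* and *WRKY28* had log2FC of 0.84 and 0.45 without passing. *WRKY50*, which acts in jasmonate repression, had 2.27, 2.31 and 3.03 CPM in *ubp12/13*, against 1.85, 0.874 and 2.65 CPM in wt, with overlap (log2FC 0.52 ± 0.35, adjusted p = 0.288). The phosphate starvation gene *WRKY45* had 2.57, 3.14 and 2.35 CPM in *ubp12/13*, against 2.73, 3.0 and 2.8 CPM in wt, with overlap.

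The 8 members under the CPM filter in this comparison were *WRKY30*, *WRKY31*, *WRKY35*, *WRKY38*, *WRKY51*, *WRKY55*, *WRKY65* and *WRKY75*. *WRKY75* (AT5G13080), the relative of *WRKY45* in phosphate starvation and a senescence gene, had 0.605, 0.414 and 0.681 CPM in *ubp12/13*, against 0.218, 0.499 and 0.156 CPM in wt, and *WRKY51* (AT5G64810), the copy of *WRKY50* in jasmonate repression, had 0.0756, 0 and 0 CPM in *ubp12/13*, against 0.218, 0.125 and 0 CPM in wt. *WRKY30*, *WRKY38* and *WRKY55* had 3 counts or fewer in every library of all 4 genotypes, and *WRKY31*, *WRKY35* and *WRKY65* had at most 5, 8 and 12 counts.

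In *ubp12* seedlings, of 36 members tested, 1 was called higher and none lower, beside 0.469% and 0.215% of 17712 genes. By the adjusted p alone 2 were higher and none lower, beside 1.08% and 0.706% of all genes. The median log2FC was 0.014 over the members and -0.004 over all genes. In 8 members all *ubp12* libraries lay above all wt libraries and in 1 all lay below, beside 9.69% and 10.3% of all genes. The called gene was *WRKY53*, with 5.9, 3.61 and 8.29 CPM in *ubp12*, against 1.53, 2.37 and 0.935 CPM in wt. The groups did not overlap, but the call (log2FC 1.82 ± 0.37, adjusted p = 0.0404) sat close to the threshold and was lost without wt replicate 1, wt replicate 3, *ubp12* replicate 1 or *ubp12* replicate 3, with adjusted p values of 0.0859 to 0.138. It was also lost with the replicate block (adjusted p = 0.0585), with chloroplast and mitochondrial genes kept (0.0516) and in a common fit of all libraries (0.0646).

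*WRKY70* and *WRKY54* stood above wt in *ubp12* and below it in *ubp12/13*. *WRKY70* had 172, 150.0 and 188 CPM in *ubp12*, where every library was above every wt library, and passed the adjusted p under the minimum fold change (log2FC 0.63 ± 0.12, adjusted p = 0.029). It missed the adjusted p in a common fit of all libraries (0.271) and without wt replicate 2, wt replicate 3, *ubp12* replicate 1 or *ubp12* replicate 3. *WRKY54* had 11.1, 11.6 and 14.2 CPM in *ubp12* and was not called by edgeR (log2FC 1.04 ± 0.30, adjusted p = 0.121), although it was called in DESeq2 (adjusted p = 0.0237), without a filter on low counts (0.0373) and without wt replicate 1 (0.00758). *WRKY33* had 210.4, 140.1 and 206 CPM and *WRKY40* had 70.7, 30.1 and 35 CPM in *ubp12*. Their libraries lay above all wt libraries, with log2FC of 0.99 and 1.24 that did not pass the test (adjusted p = 0.122 and 0.135). *WRKY33* was called without wt replicate 2 (adjusted p = 0.0328) and *WRKY40* was called when no filter on low counts was used (adjusted p = 0.0317).

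*WRKY46* had 7.79, 5.82 and 4.37 CPM in *ubp12*, above all wt libraries (log2FC 0.93 ± 0.27, adjusted p = 0.125). The other members called in *ubp12/13* had log2FC in *ubp12* from -0.63 for *WRKY17* to 0.50 for *WRKY6* and were not called there. *WRKY57* was at 4.34, 4.07 and 4.52 CPM in *ubp12*, narrowly above all wt libraries (log2FC 0.16). *WRKY8* was at 2.78, 1.63 and 1.96 CPM in *ubp12*, with overlap with wt (log2FC 0.03).

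In the libraries labelled *ubp13* none of the 37 members tested was called by edgeR or DESeq2. Of all 17615 genes edgeR called 0.0227% higher and 0.00568% lower, with or without the minimum fold change, and 0.0284% in either direction. The median log2FC was 0.015 over the members and -0.004 over all genes, which library totals moved to -0.038 and -0.055. No member had all *ubp13* libraries above all wt libraries and 4 had all below, beside 6.13% and 5.38% of all genes. These were *WRKY18*, *WRKY26*, *WRKY45* and *WRKY46*. *WRKY46* had 1.28, 1.35 and 1.93 CPM in *ubp13*, below every wt library, with a log2FC of -1.08 ± 0.30 and an adjusted p of 0.716. *WRKY45* had 1.54, 1.18 and 1.32 CPM in *ubp13*, with a log2FC of -1.07 ± 0.25 and an adjusted p of 0.663. *WRKY70* had 177, 79.3 and 208 CPM and *WRKY54* 10.3, 3.37 and 13.2 CPM in *ubp13*, with replicate 2 low in both.

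Whether *ubp12/13* differed from what both single mutants add up to was tested directly, by subtracting the added log2FC of *ubp12* and *ubp13* from the log2FC of *ubp12/13*, in a fit of all 12 libraries. Of 38 members, 7 were called higher than the sum and 3 lower, beside 3.23% and 3.14% of 18212 genes, and the 10 calls were 26.3% of the members, beside 6.37% of all genes. The adjusted p alone gave the same counts, beside 6.83% and 7.57% of all genes. The median difference was 0.443 over the members and 0.005 over all genes, which library totals moved to 0.652 and 0.216. *WRKY46* stood farthest above the sum (difference 3.66 ± 0.37, adjusted p = 5.4e-05). It was at 36.5 ± 6.03 CPM in *ubp12/13*, 5.99 ± 1.72 CPM in *ubp12* and 1.52 ± 0.36 CPM in *ubp13*, with 3.14 ± 0.869 CPM in wt (SD, n = 3 each). *WRKY26* (difference 2.07 ± 0.30, adjusted p = 0.000591) was at 4.9, 8.38 and 6.03 CPM in *ubp12* and 5.64, 7.66 and 4.48 CPM in *ubp13*, where the *ubp13* libraries lay below wt and the *ubp12* libraries overlapped with it. *WRKY25* (1.93), *WRKY45* (1.40), *WRKY57* (1.37), *WRKY23* (1.20) and *WRKY7* (1.14) were also called above the sum.

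*WRKY54* and *WRKY70* stood farthest below the sum (difference -3.67 ± 0.65, adjusted p = 0.00229, and -2.63 ± 0.38, adjusted p = 0.000605). Their means in *ubp12/13* were 1.44 ± 0.544 and 38.7 ± 8.5 CPM, those in *ubp12* 12.3 ± 1.63 and 169.9 ± 19 CPM, those in *ubp13* 8.95 ± 5.06 and 155 ± 67.3 CPM, and those in wt 5.74 ± 3.33 and 110.3 ± 11.5 CPM (SD, n = 3 each). *WRKY41* was called below the sum (-1.75 ± 0.48, adjusted p = 0.0278), but lost this call in DESeq2 (adjusted p = 0.07), with thinned counts (0.0503) and without any of 5 libraries (wt replicate 3, *ubp12* replicate 3, *ubp13* replicate 3 and *ubp12/13* replicates 2 and 3). *WRKY23* lost it with thinned counts (0.092) and without wt replicate 1 or 2, *ubp12* replicate 1 or *ubp13* replicate 2, and *WRKY7* without *ubp13* replicate 3 (difference 0.98). *WRKY33* (0.75 ± 0.39), *WRKY40* (1.63 ± 0.54) and *WRKY53* (0.53 ± 0.62) did not differ from the sum past the threshold (adjusted p = 0.234, 0.0607 and 0.626). *WRKY33* was called without wt replicate 1 (1.06, adjusted p = 0.0329), and *WRKY40* was called with library totals, without a filter on low counts and without wt replicate 1, *ubp12* replicate 1 or *ubp12/13* replicate 3 (1.64 to 2.11, adjusted p = 0.0172 to 0.0295). *WRKY18* was called above the sum in DESeq2, with library totals, without a filter on low counts, with the replicate block and without *ubp12/13* replicate 2 (1.60 to 2.01, adjusted p = 0.0116 to 0.0458), but not in edgeR's test as set out (difference 1.66 ± 0.59, adjusted p = 0.0789).

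The order of levels within the family differed between the genotypes. Per kilobase of exon, *WRKY70* ranked 8 of the 46 genes in *ubp12/13* (26.3 CPM per kb) and 1 in wt (75 CPM per kb), whereas *WRKY33* ranked 1 in *ubp12/13* (158.7 CPM per kb) and 2 in wt (46.1 CPM per kb). *WRKY40* ranked 2 in *ubp12/13* and 7 in wt, *WRKY46* ranked 7 in *ubp12/13* and 23 in wt, and *WRKY54* ranked 33 in *ubp12/13* and 18 in wt. *WRKY11*, *WRKY3*, *WRKY15* and *WRKY22* were among the top 6 in both genotypes. The ranks are a description without a test. Summed over the 46 genes, the level was 1047 to 1231 CPM in *ubp12/13*, 725 to 913 CPM in *ubp12*, 584 to 733 CPM in *ubp13* and 556 to 710.4 CPM in wt.

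The replicates of these genes spread more than those of most genes. The SD of log2 CPM within genotypes had a median of 0.35 over the 38 members and 0.18 over all genes. The members and all genes were not matched for level, on which this SD also depends. *WRKY20* was among the steadiest (SD 0.08) and *WRKY54* was the least steady (0.69), followed by *WRKY48*, *WRKY60*, *WRKY53* and *WRKY40*. In wt, replicate 2 was the highest library for 25 of the 38 members and replicate 3 the lowest for 20. In *ubp12/13*, *ubp12* and *ubp13*, replicate 3 was the highest for 19 members each. The members share these libraries and are not independent of each other.

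Beside these mRNA levels, the merged peaks of H2Aub1 increase in *ubp12/13* were placed on the genes. Of the 46 members, 2 (4.35%) had a peak that overlaps the first kilobase of their body, *WRKY27* and *WRKY29*, beside 3.58% of 27444 protein-coding genes. The peak at *WRKY27* (AT5G52830, chr5:21410769-21412526, plus strand) was 1533 bp wide, at chr5:21410753-21412285, and covered that kilobase whole. The peak at *WRKY29* (AT4G23550, chr4:12291632-12293367, plus strand) was 665 bp wide, at chr4:12291612-12292276, and ended 644 bases into the gene. Neither gene was called in any comparison as set out, and *WRKY29* was called above the sum of the single mutants without *ubp12* replicate 2 (difference 1.59, adjusted p = 0.0223). *WRKY27* had 0.605, 0.946 and 0.984 CPM in *ubp12/13*, against 1.09, 1.5 and 0.935 CPM in wt, with overlap (log2FC -0.48 ± 0.34, adjusted p = 0.325), and the *WRKY29* values are given above. None of the 13 members called in *ubp12/13* had a peak in the gene body or in the 2 kb before its start, a window that holds a peak in 6.02% of all protein-coding genes. RNA and peaks came from plants of different age and organ, and the peak list gives no height to compare.

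**Figure D4:**
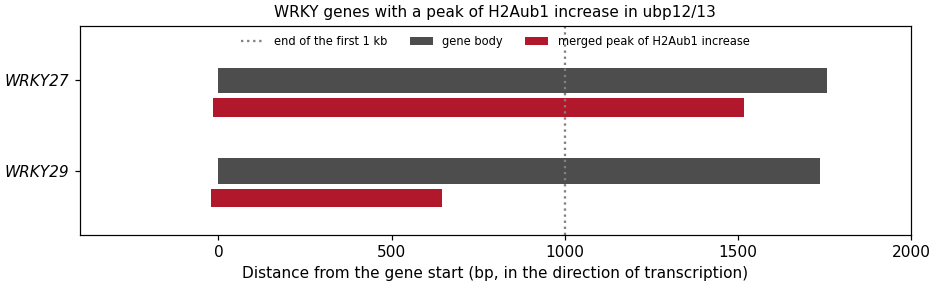
Position of the merged peaks of H2Aub1 increase (red) at *WRKY27* and *WRKY29* relative to the gene body (grey), in bp from the gene start in the direction of transcription. The peaks begin 16 and 20 bp before the start, and that of *WRKY27* covers 1517 bp of the gene body against 645 bp for *WRKY29*.

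At least 1 W-box (TTGACC or TTGACT, either strand, from 250 bases before to 50 after the start) was found in 15 of 46 members (32.6%), beside 32.4% of 27444 protein-coding genes. At least 2 were found in 8 members (17.4%), beside 7.7% of these genes. The 8 were *WRKY15*, *WRKY17*, *WRKY29*, *WRKY30*, *WRKY33*, *WRKY41*, *WRKY45* and *WRKY53*. A W-box stood in 3 of the 8 members called higher in *ubp12/13*, in 2 of the 5 called lower, in 7 of the 25 tested and not called and in 3 of the 8 not tested. *WRKY40*, *WRKY46*, *WRKY54* and *WRKY70* had none in this window. The promoters of *WRKY41* and *WRKY53* shown above both have a W-box on the strand of the gene farther from the start and 1 on the opposite strand nearer to it, at 194 and 78 bases before the start in *WRKY41* and at 219 and 71 in *WRKY53*, while *WRKY41* was called lower and *WRKY53* higher.

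Genes that act with WRKY factors were followed as a list of 12 MAP kinase cascade and VQ protein genes. In *ubp12/13* none of the 12 was called, 4 passed the adjusted p with a positive log2FC and 1 with a negative one, beside 9.96% of all genes called and 16% and 15.1% past the adjusted p in each direction. Their median log2FC was 0.28, and that of all genes -0.002. *MKK5* (0.95 ± 0.11, adjusted p = 0.000482) and *MPK3* (0.75 ± 0.19, adjusted p = 0.0188) are steps of the cascade that phosphorylates WRKY33. *MKS1*, a VQ protein that holds WRKY33 and MPK4 together, had a log2FC of 0.68 ± 0.14 (adjusted p = 0.00632). *SIB2*, a VQ partner of WRKY33, had -0.84 ± 0.20 (adjusted p = 0.014). In *ubp12* 1 of 12 was called, beside 0.683% of all genes. This was *SIB1*, with 22.5, 24.4 and 31.7 CPM in *ubp12*, against 14.8, 8.99 and 10.1 CPM in wt (log2FC 1.19 ± 0.19, adjusted p = 0.0144). In *ubp12/13* *SIB1* had 11.5, 10.9 and 13.2 CPM, with overlap with wt (log2FC 0.05 ± 0.19, adjusted p = 0.865). In *ubp13* none of the 11 tested was called. Against the sum of the single mutants 1 of 12 was called, beside 6.37% of all genes. This was *SIB1*, which was lower (edgeR, difference -1.56 ± 0.48, adjusted p = 0.0457).

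Of 15 genes described as targets of WRKY factors, 9 were tested in *ubp12/13* and 2 were called, both higher, beside 5.94% of all genes called higher and 9.96% in either direction. The median log2FC was -0.10 over the 9. *CYP71A13*, a camalexin synthesis gene downstream of WRKY33, had 11.6, 15.7 and 25.2 CPM in *ubp12/13*, against 6.22, 2.62 and 0.779 CPM in wt, without overlap (log2FC 2.35 ± 0.49, adjusted p = 0.00733). *PAD3*, the last step of the same pathway, had 2.04, 0.355 and 1.51 CPM in *ubp12/13*, against 3.49, 0.25 and 0.156 CPM in wt, with overlap and no call (-0.19 ± 0.91). *ABI5*, an abscisic acid response gene repressed by WRKY40, had 2.57, 2.72 and 2.72 CPM in *ubp12/13*, against 0.545, 0.375 and 0.623 CPM in wt, without overlap (log2FC 2.36 ± 0.29, adjusted p = 0.000591). *ICS1*, the salicylic acid synthesis gene, passed the adjusted p with a negative log2FC (log2FC -0.57 ± 0.16, adjusted p = 0.0249). None of the 7 targets tested in *ubp12* and none of the 6 tested in *ubp13* was called. Against the sum of the single mutants 1 of 9 was called higher and 1 lower, beside 3.23% and 3.14% of all genes. These were *CYP71A13* (edgeR, difference 3.07 ± 0.77, adjusted p = 0.0171) and *GL2* (-1.21 ± 0.27, adjusted p = 0.00949).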

How the data were processed

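The values used are raw counts of reads per gene, which the authors made from 50-base single-end reads with cutadapt 1.18, TopHat2 and HTSeq 0.11.1 on TAIR10 and deposited without normalization or pooling. The strand setting of the counting is not given in the sources used here. The ChIP-seq file gives positions of H2Aub1 increase peaks, which the authors merged where those of 2 replicates overlapped, and the score column as deposited holds 1 value throughout and was not used. Peaks of H2Aub1 decrease and the other ChIP-seq data were not analysed here.

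Groups are the labelled genotypes. Tests against wt used edgeR 4.0.16 in R 4.3.3 (TMM, glmQLFit and glmQLFTest, Benjamini-Hochberg adjustment over all genes tested) on the 6 libraries of the pair, after removal of chloroplast and mitochondrial genes and of genes without CPM over 1 in at least 2 libraries. The thresholds for calls, given in the report, are those of the study. Every adjusted p printed is from edgeR unless DESeq2 1.42.0, the tool of the study, is named. The ± beside a log2FC or a difference of log2FC is a standard error that edgeR does not report. It was worked back as the absolute log2FC over the square root of edgeR's F statistic. For some genes with few counts it is smaller than the p-value implies. The scripts were tested on simulated counts. The study's methods call the replicates biological, the labels number them without naming separate plants, and p-values cover the spread between these libraries alone. The biological coefficient of variation was 12.3% to 12.9%, and depth limits members with few counts.

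Of the 33323 nuclear IDs, 32835 are in the TAIR10.1 annotation used for positions. Promoter windows were cut from that genome. A peak counted as present when at least 1 bp of it lay within 1 kb downstream of the gene start. Members called, members with a peak and closely related copies were given with every library's value, other members by group. The members and gene lists were chosen with earlier results of these data known. Alternatives were other scalings, DESeq2, other filters, thinned counts, a replicate block, a common fit and leaving out each library. Python 3.11.15, NumPy 2.4.6, pandas 2.3.3 and Matplotlib 3.10.9 were used.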

Additional observations from a re-analysis of the deposited data

Results flagged for a closer look

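For 10 WRKY genes the change in *ubp12/13* departed from the added changes of both single mutants, past both thresholds, in an edgeR test of that difference. The difference was 3.66 for *WRKY46*, 2.07 for *WRKY26*, 1.93 for *WRKY25*, 1.40 for *WRKY45*, 1.37 for *WRKY57*, 1.20 for *WRKY23* and 1.14 for *WRKY7*. It was -3.67 for *WRKY54*, -2.63 for *WRKY70* and -1.75 for *WRKY41*. *WRKY7*, *WRKY23*, *WRKY26* and *WRKY45* are listed although none of them was called in any genotype against wt in the tests as set out. *WRKY45* had 2.57, 3.14 and 2.35 CPM in *ubp12/13*, against 2.73, 3.0 and 2.8 CPM in wt. Its levels were 2.34, 2.09 and 1.96 CPM in *ubp12* and 1.54, 1.18 and 1.32 CPM in *ubp13*.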

How the results depend on the processing

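The 13 members called in *ubp12/13* were 12 to 16 when a library was left out, 17 with library totals, 14 in DESeq2, 10 with CPM over 1 in all libraries (30 members tested) and 22 without a minimum fold change. All but *WRKY22* and *WRKY8* kept their call in every alternative in which they were tested. The 1 call in *ubp12* became 2 in DESeq2 or without a minimum fold change, 3 without a filter on low counts, and 0 with CPM over 1 in all libraries, with chloroplast and mitochondrial genes kept, with all 12 libraries in a common fit or with the replicate block, and ran from 0 to 2 without single libraries. In *ubp13* it was 0 throughout, and 0 to 0 without single libraries. The 10 calls against the sum of the single mutants ran from 8 to 11 without single libraries, and were 13 with library totals, 12 with the replicate block or without a filter on low counts and 8 with thinned counts. Same-numbered libraries of different genotypes correlated by -0.165 to 0.292 in their deviations and others by -0.248 to 0.161. All 9 same-numbered pairs among the mutants were positive (0.015 to 0.292) and most of those with wt were negative. Since not every pair was over 0.1 and no source says what a number marks, the numbers were not taken as pairing. The replicate block took away the call of *WRKY53* in *ubp12* and added *WRKY18* and *WRKY60* to those against the sum (adjusted p = 0.0283 and 0.0484), and changed no other call of the members followed. The direction against wt in *ubp12/13* turned for *WRKY45* with library totals (0.0745) and for *WRKY20* with thinned counts (-0.0131), and without single libraries values ran from -0.0894 to 0.84 for *WRKY60*, -0.21 to 0.0073 for *WRKY45*, -0.0308 to 0.0432 for *WRKY39*, -0.0455 to 0.0487 for *WRKY20* and -0.10 to 0.32 for *WRKY2*, none of which passed the test. The 65 results followed for single members were counted once in each alternative that gave a value. Of these counts 1032 kept their side of the threshold, 44 passed it, 25 lost it and 9 turned direction. They include the setting without a minimum fold change, which can only keep or add calls (55 kept and 10 added). With peaks of at least 1000 bp alone, 1 member had a peak, beside 2.49% of genes, and with the core TTGAC alone, 28 of 46 members (60.9%) had a W-box, beside 50.5% of promoters. The cause of these shifts was not tested.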
